A study of Homo sapiens with 6 samples.

Results

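LN-229 is one of 3 established human glioblastoma cell lines whose RNA was sequenced 72 h after transfection with an siPOOL, a pool of many siRNAs, against the long non-coding RNA HOTAIRM1 (siHOTAIRM1) or with a non-target pool (siControl). LN-229 contributed 2 of the 6 libraries, 1 with each siPOOL, and T98G and U251 contributed 2 libraries each in the same arrangement. Every library therefore came from transfected cells, and the sample titles write the line as LNT229. The 2 libraries of a line differ in their siPOOL and are not repeats of 1 condition, so each p-value below measures the spread between these libraries. Each line is 1 line and stands for itself, not for glioblastomas in general.

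Cell lines keep part of the expression programme of the tumour and of the cell lineage they came from, and they add changes acquired in culture. Genes of glial lineages, of the extracellular matrix, of antigen presentation and of the germ line are among those that commonly separate glioma lines. Glioblastoma is counted among the astrocytic tumours, for which GFAP (the intermediate filament of astrocytes), SOX2 and SOX9 (transcription factors of neural stem cells and glia) and NES (nestin, a filament of neural progenitors) are customary markers. SOX10, in contrast, is a transcription factor of oligodendrocytes, Schwann cells and melanocytes, which all use it in their differentiation.

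Levels are given in CPM, which scales reads by library depth and does not divide them by gene length, so a level is compared between libraries and not between genes. Of each pair of levels, the siControl library comes first. A difference is LN-229 minus the other line on the scale of log2(CPM + 1), given ± the standard error of limma, and it understates the change of genes with low levels. Depth was between 52.3 and 104 M reads per library, and 3 reads, taken as the smallest detectable level, were worth 0.0289 to 0.0574 CPM. In the shallowest library, a level of 1 CPM rested on 52 reads with a 95% Wilson interval of 0.759 to 1.30 CPM, which covers counting error only. The targeted RNA was lower in the siHOTAIRM1 library of each line, as HOTAIRM1 was at 1.99 and 0.952 CPM in LN-229, 3.49 and 2.15 CPM in T98G and 1.27 and 0.622 CPM in U251. The library of U251 with siControl stood somewhat apart, since its listed genes summed to 67.2% of the CPM scale against 42.9 to 55.9% in the other 5.

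The 2 libraries of LN-229 lay close to each other. Their median absolute difference over the 14293 tested genes was 0.10 on the log2 scale, against 0.22 between the libraries of T98G and 0.24 between those of U251, and 33 genes differed by 1 or more. Between lines the median absolute difference was 0.45 for LN-229 against T98G and 0.53 for LN-229 against U251. With limma, which shares the spread across genes, 7851 genes (54.9% of those tested) had an adjusted p under 0.05 in LN-229 against T98G and 8663 (60.6%) in LN-229 against U251. Of these calls, 56.1% were higher in LN-229 than in T98G and 39.5% were higher in LN-229 than in U251. Both shares depended on the processing. The first was 52.7% when each library was scaled to the sum of its listed genes, 49.8% with median-of-ratios factors, 49.4% without the siHOTAIRM1 library of LN-229 and 47.7% without that of T98G. The second was 61.9% and 50.5% under the same 2 scalings, and the median difference of all genes against U251 moved from -0.15 to 0.17 and 0.00.

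A gene was counted as higher in LN-229 than in both lines when both adjusted p-values were under 0.05, both differences were at least 1 and the lower LN-229 library lay above all 4 others. This held for 790 genes (5.53% of those tested), and 576 genes (4.03%) were lower by the mirrored rule. The share of each gene list below is to be read beside these 2 shares. For called genes, the lack of overlap between LN-229 and the other libraries is part of the rule and not a further result. The same rule gave 710 higher and 672 lower genes for T98G and 1099 and 617 for U251, so LN-229 lay between the other lines in its count of higher genes and below both in its count of lower genes. The larger of the 2 adjusted p-values was at most 2.39e-04 among the higher genes and 2.17e-04 among the lower genes. Of the 1366 genes, 16 differed by 1 or more between the 2 libraries of LN-229. Within the siControl libraries alone, 741 of the 790 and 548 of the 576 kept a difference of at least 1 against both lines, and within the siHOTAIRM1 libraries 752 and 479 did. The genes were chosen on these same libraries, so high counts follow in part from the choice and are no separate check.

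**Figure D1:**
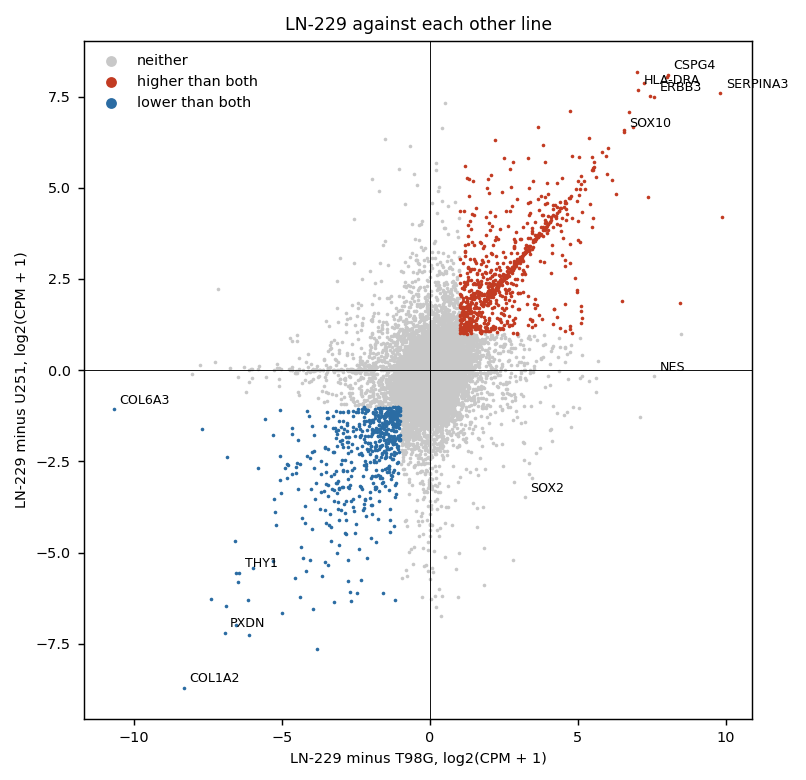
Difference of LN-229 from T98G (x axis) and from U251 (y axis) on the log2(CPM + 1) scale, 1 point per tested gene. The 790 genes higher in LN-229 than in both lines are red, the 576 lower genes are blue, and NES and SOX2, which were near 0 in T98G only, lie off the diagonal.

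The largest differences were in genes that were on in LN-229 and near 0 in the other lines. CSPG4 (NG2, a surface proteoglycan of glial progenitors and pericytes, on chromosome 15 from 75674322 to 75712848) was at 319 and 284 CPM in LN-229, 0.130 and 0.193 CPM in T98G and 0.172 and 0.0296 CPM in U251. All 4 libraries of the other lines lay far under both of LN-229, and the difference was 8.02 ± 0.18 from T98G and 8.10 ± 0.18 from U251. ERBB3, a receptor of neuregulins that Schwann cells need, was at 207 and 253 CPM in LN-229, 0.116 and 0.302 CPM in T98G and 0.268 and 0.277 CPM in U251. SERPINA3, an acute-phase protease inhibitor, was at 1548 and 1544 CPM in LN-229, 0.681 and 0.784 CPM in T98G and 3.75 and 12.4 CPM in U251. FDCSP, a small secreted protein first described in follicular dendritic cells, was at 226 and 372 CPM in LN-229, 0.130 and 0.110 CPM in T98G and 0.0957 and 0.109 CPM in U251. In these 4 genes no library of T98G or U251 came near LN-229.

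The remaining genes of the 15 largest positive differences included ST8SIA5, a sialyltransferase of gangliosides, GAS7, the class II genes HLA-DRA, HLA-DRB1 and CD74, CXCL1, CDH19, SOX10, LCN2 and IL1A, and 1 more. LCN2 is an iron-binding lipocalin of inflammation and was at 86.2 and 54.3 CPM in LN-229, 0.0724 and 0.0825 CPM in T98G and 0.0191 and 0 CPM in U251. GAS7 was at 284 and 351 CPM in LN-229, 1.11 and 1.14 CPM in T98G and 0.344 and 0.385 CPM in U251. The smaller of the 2 differences ran from 5.81 to 8.02 over the 15 and was largest in CSPG4, and the larger of the adjusted p-values was at most 2.46e-25 (limma).

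The largest differences in the other direction were led by genes of the matrix. COL1A2, the alpha 2 chain of type I collagen on chromosome 7 from 94394895 to 94431227, was at 0.453 and 0.443 CPM in LN-229, 409 and 511 CPM in T98G and 587 and 622 CPM in U251. It was below 1 CPM in both libraries of LN-229 and abundant in all others, a difference of -8.31 ± 0.18 from T98G and -8.71 ± 0.18 from U251. COL5A2, a chain of type V collagen, was at 1.25 and 1.01 CPM in LN-229, 248 and 246 CPM in T98G and 189 and 185 CPM in U251. PXDN, a peroxidase that crosslinks collagen IV, was at 0.238 and 0.385 CPM in LN-229, 147 and 172 CPM in T98G and 145 and 253 CPM in U251. PLAU, the urokinase plasminogen activator, was at 0.249 and 0.173 CPM in LN-229, 157 and 78.2 CPM in T98G and 178 and 129 CPM in U251. All 4 of these genes were separated between LN-229 and the other lines without overlap, as the rule requires.

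Also among the 15 was THY1, a surface glycoprotein of fibroblasts and neurons, at 0.668 and 0.625 CPM in LN-229, 152 and 131 CPM in T98G and 81.9 and 70.8 CPM in U251. The others included ALPK2, HIST1H3G, SPECC1, CDH6, PTPRG, SULF2 (a sulfatase that edits heparan sulfate), FUCA2, COL5A1 and NRCAM. HIST1H3G is one of many near-identical histone genes, so its own level is uncertain. The smaller difference ran from -8.31 in COL1A2 to -4.55 in NRCAM, and the larger adjusted p-value was at most 1.88e-22 (limma).

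**Figure D2:**
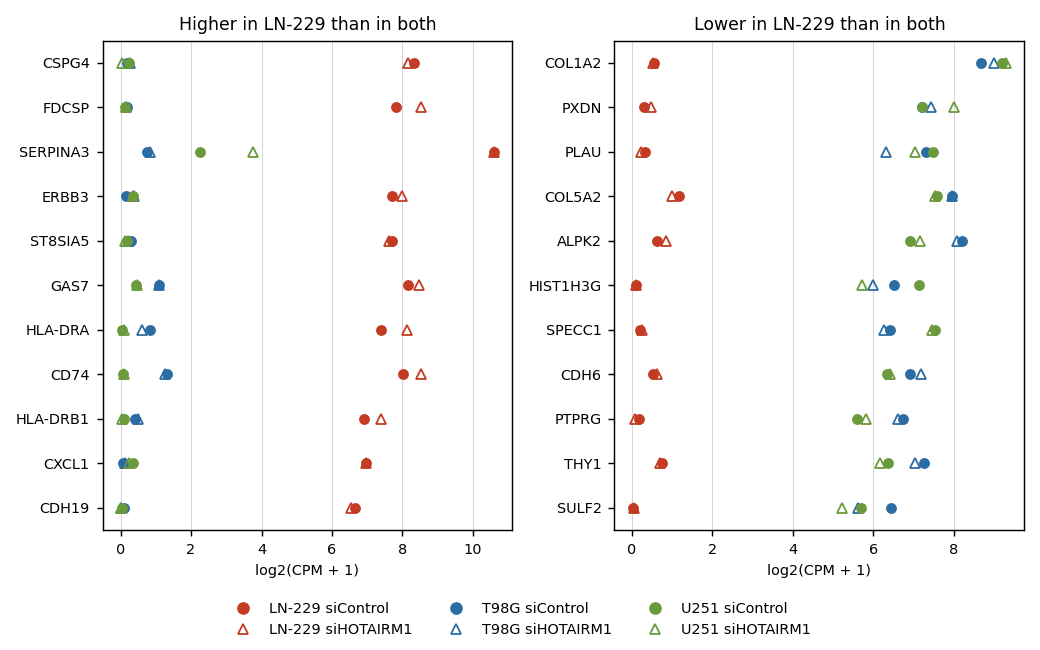
Level in log2(CPM + 1) of the 11 genes with the largest smaller-of-both difference in each direction, with 1 symbol per library (colour for the line, filled circle for siControl, open triangle for siHOTAIRM1). As the rule requires, both LN-229 symbols lie to the right of all others in the left panel and to the left of all others in the right panel.

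The glial genes of LN-229 were not those of astrocytes alone. Of 15 tested glial and neural stem markers, 4 were higher in LN-229 than in both lines (SOX8, SOX10, S100B and CSPG4, 26.7%). A further 2 were lower (SOX9 and SLC1A3, 13.3%), and the other 9 met neither rule. The medians of all 15 were 2.10 against T98G and -1.25 against U251, beside 0.08 and -0.15 for all tested genes. Of 5 tested oligodendrocyte markers, 3 were higher (MAG and SOX10 among them) and 0 were lower, and of 4 tested astrocyte markers 1 was higher (S100B) and 2 were lower (SLC1A3 and GJA1). All 3 of these oligodendrocyte markers, and 3 of the 4 higher glial markers, had a mean under 1 CPM in the other lines. They were tested only because LN-229 was high, so these counts describe genes chosen in part by that level.

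SOX10, on chromosome 22 from 37970686 to 37987422, was at 81.5 and 112 CPM in LN-229, 0.0290 and 0.0412 CPM in T98G and 0.0766 and 0.0198 CPM in U251. Both LN-229 libraries stood far above the others, which lay below 0.1 CPM, a difference of 6.55 ± 0.17 from T98G and 6.53 ± 0.17 from U251. MAG, a myelin-associated glycoprotein, was at 9.98 and 11.1 CPM in LN-229, 0.0434 and 0.0275 CPM in T98G and 0 and 0 CPM in U251, which put it at or under 3 reads in all 4 libraries of the other lines. S100B, a calcium-binding protein of glia, was at 21.1 and 24.7 CPM in LN-229, 0 and 0 CPM in T98G and 2.53 and 2.06 CPM in U251, with T98G at 0 and U251 in between. SOX8, a close relative of SOX10, was at 4.16 and 2.55 CPM in LN-229, 0 and 0 CPM in T98G and 0.0191 and 0 CPM in U251. CDH19, a cadherin of Schwann cell precursors, was at 100.1 and 92.7 CPM in LN-229, 0.0724 and 0.0138 CPM in T98G and 0.0191 and 0.00988 CPM in U251. These genes were higher in both libraries of LN-229 than in any library of another line, as the rule requires.

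SOX9, the third member of that SOX subgroup, was in the opposite state at 0.0227 and 0.0289 CPM in LN-229, 10.3 and 11.5 CPM in T98G and 31.6 and 47.1 CPM in U251. It was at or under 3 reads in both LN-229 libraries and at 10 CPM or more in all others, a difference of -3.54 ± 0.18 from T98G and -5.27 ± 0.18 from U251. SLC1A3, a glutamate transporter of astrocytes, was at 4.10 and 2.51 CPM in LN-229, 18.3 and 13.1 CPM in T98G and 66.3 and 61.8 CPM in U251, and GJA1, the connexin of astrocytes, was at 17.2 and 12.4 CPM in LN-229, 84.4 and 100.2 CPM in T98G and 94.8 and 106 CPM in U251. Both were lower in LN-229 with no overlap. GFAP was at 0.317 and 0.298 CPM in LN-229, 0.0434 and 0.0550 CPM in T98G and 42.5 and 20.8 CPM in U251, so it was low in LN-229 and T98G alike and its difference of 0.32 ± 0.19 from T98G did not pass the test (adjusted p = 0.15, limma). SOX2 was at 8.15 and 8.60 CPM in LN-229, 0.0145 and 0 CPM in T98G and 91.4 and 117 CPM in U251 and NES at 368 and 359.7 CPM in LN-229, 0.956 and 0.866 CPM in T98G and 329 and 507 CPM in U251, so LN-229 lay between the lines for SOX2 and beside U251 for NES.

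Since melanocytes also use SOX10, the 7 melanocyte markers were read beside it. Of the 3 tested, only SOX10 itself was higher than in both lines. MLANA was at 0 in all 6 libraries, TYR was at 0 in both LN-229 libraries, DCT was at 1 read in each of them, and MITF was at 9.78 and 10.1 CPM in LN-229, 13 and 10.4 CPM in T98G and 4.65 and 5.81 CPM in U251. MITF did not pass the test against T98G, with a difference of -0.21 ± 0.18 (adjusted p = 0.33, limma). Lists of immune, epithelial and muscle markers had 0 tested genes, and their summed levels in LN-229 were 0.159 and 0.202, 0.521 and 1.02, and 0.295 and 0.260 CPM. Of the customary markers, NES and SOX2 were thus present in LN-229, while SOX9 and GFAP were at or near 0. In bulk RNA, fewer cells with a gene and less RNA per cell cannot be told apart.

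**Figure D3:**
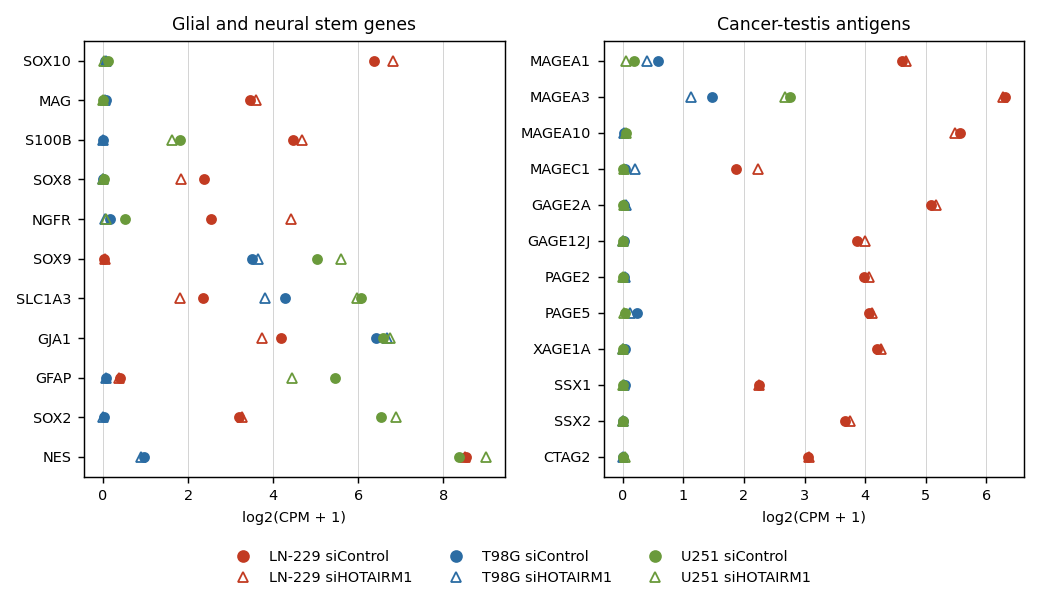
Level in log2(CPM + 1) of 11 glial or neural stem genes (left) and 12 cancer-testis antigens (right), 1 symbol per library. In LN-229, SOX10, MAG and S100B were high and SOX9 was at the left edge. The 12 cancer-testis antigens were drawn from those called higher in LN-229 than in both lines.

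Antigen presentation was split within LN-229. HLA class II molecules present peptides to CD4 T cells, are usually made by immune cells and are switched on by the coactivator CIITA, often under interferon gamma, while class I molecules are made by nearly all cells and rise with interferons through NLRC5 and the STAT factors. Of 56 tested genes of antigen presentation and the interferon response, 10 were higher in LN-229 than in both lines and 23 were lower (17.9% and 41.1%, beside 5.53% and 4.03% of all tested genes). The 10 were HLA-DRA, HLA-DRB1, HLA-DPA1, HLA-DPB1, HLA-DQA1, HLA-DQB1, HLA-DMA, HLA-DMB, CD74 and CIITA, and none of the 23 was a class II gene. Of the 10, 5 had a mean under 1 CPM in the other lines and were tested only because LN-229 was high.

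Promoters of several class II genes carry the Y box, CTGATTGG, a binding sequence of NF-Y that is part of the module through which CIITA acts. These windows of 30 bases from RefSeq on GRCh38.p14 are shown because they hold it, with the Y box in capitals.
HLA-DRB1, chr6:32589879-32589908, minus strand: gaactcagatgCTGATTGGttctccaacac
HLA-DRB5, chr6:32530362-32530391, minus strand: gaactcagatgCTGATTGGttctccaacac
HLA-DQB1, chr6:32666730-32666759, minus strand: cagctccagtgCTGATTGGttcttttccga
HLA-DMA, chr6:32953161-32953190, minus strand: cctacgcttctCTGATTGGtttagacaaaa
Both strands were searched from 250 bases before to 50 after each start site. Of 12 genes, the class II genes with CD74 and CIITA, 10 had a promoter to search and 4 held these exact letters. HLA-DPA1, HLA-DPB1, HLA-DQA1, HLA-DMB, HLA-DOA and CD74 did not hold them. The letters occur in 3.97% of all 35116 promoters. They were looked for because of these genes, so the shares were not tested against each other. HLA-DRB1 and HLA-DRB5 share the whole window, and their coding sequences are alike too, so the split of reads between them is uncertain.

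HLA-DRA, the alpha chain of HLA-DR, was at 166 and 277 CPM in LN-229, 0.767 and 0.522 CPM in T98G and 0.0191 and 0.0692 CPM in U251. CD74, the invariant chain that escorts class II molecules, was at 261 and 365 CPM in LN-229, 1.51 and 1.38 CPM in T98G and 0.0574 and 0.0692 CPM in U251. The difference of CD74 was 6.99 ± 0.18 from T98G and 8.19 ± 0.18 from U251. HLA-DQA1 and HLA-DQB1 were at or under 3 reads in all 4 libraries of T98G and U251, and HLA-DQA1 was at 15.5 and 33.9 CPM in LN-229, 0.0145 and 0.0138 CPM in T98G and 0 and 0 CPM in U251. CIITA itself was at 16.2 and 26.4 CPM in LN-229, 7.47 and 5.46 CPM in T98G and 0 and 0 CPM in U251, so T98G held a lower level of the coactivator and in U251 it was not detected at this depth. HLA-DPA1 followed the same order at 87.5 and 117 CPM in LN-229, 8.35 and 6.13 CPM in T98G and 0 and 0.00988 CPM in U251. The 2 libraries of LN-229 lay above both of T98G without overlap in all 10 genes, as the rule requires.

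The class I side went the other way. HLA-B was at 30.4 and 33.4 CPM in LN-229, 334 and 301 CPM in T98G and 102 and 94.1 CPM in U251, and HLA-C was at 16.1 and 18.1 CPM in LN-229, 287 and 255 CPM in T98G and 60.8 and 62.2 CPM in U251. Both LN-229 libraries were below every other library, with differences of -3.27 ± 0.19 from T98G and -1.59 ± 0.19 from U251 for HLA-B. B2M, the light chain of class I molecules, was at 275 and 269.6 CPM in LN-229, 727 and 649.8 CPM in T98G and 894 and 514 CPM in U251, and NLRC5, the class I coactivator, was at 3.25 and 2.41 CPM in LN-229, 19.4 and 17.5 CPM in T98G and 31.1 and 36.2 CPM in U251. TAP1, a peptide transporter, met neither rule at 34.6 and 29.5 CPM in LN-229, 42.1 and 32.9 CPM in T98G and 57.6 and 35.8 CPM in U251.

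Interferon-stimulated genes were low in LN-229. OAS2, an antiviral synthetase, was at 0.0113 and 0.00962 CPM in LN-229, 7.46 and 7.59 CPM in T98G and 7.10 and 10.3 CPM in U251, which is 1 read in each LN-229 library. MX1, an antiviral GTPase, was at 0.283 and 0.317 CPM in LN-229, 9.61 and 10.1 CPM in T98G and 27.2 and 44.7 CPM in U251. IFIT1, which binds viral RNA, was at 0.770 and 0.568 CPM in LN-229, 13 and 8.19 CPM in T98G and 82.6 and 43.4 CPM in U251. STAT2, a transcription factor of type I interferon signalling, was at 11.7 and 12.2 CPM in LN-229, 50.8 and 36.8 CPM in T98G and 33.7 and 45.3 CPM in U251. All 4 were below every library of the other lines. IRF1 was the counter-example, since it was lower than in T98G but not than in U251, at 14.2 and 11.5 CPM in LN-229, 67 and 52.2 CPM in T98G and 12.8 and 10.8 CPM in U251. Markers of immune cells did not move with the class II genes, as 10 of 13 were at or under 3 reads in both libraries of LN-229 and their sum was 0.159 and 0.202 CPM there, against 1.32 to 2.32 CPM in the other lines.

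**Figure D4:**
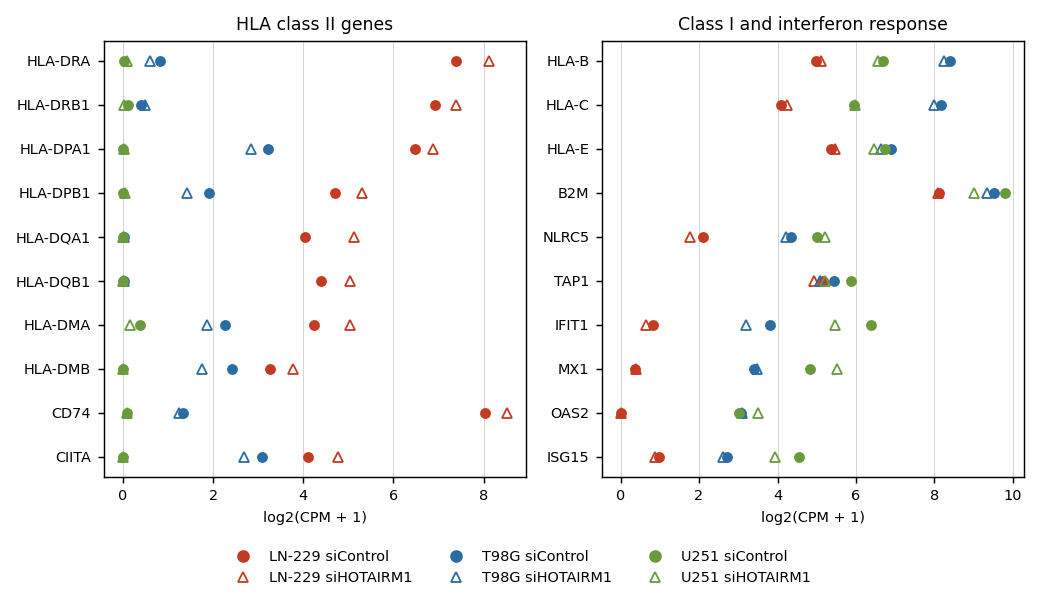
Level in log2(CPM + 1) of 10 HLA class II genes (left) and 10 class I and interferon response genes (right), 1 symbol per library. LN-229 lies to the right of both other lines for all class II genes and to the left of them for HLA-B, HLA-C, NLRC5, IFIT1, MX1 and OAS2.

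Cancer-testis antigens were the list with the largest share of higher genes. They are genes of germ cells, most of them in multicopy families on the X chromosome, that are silent in most other tissues and are found again in some tumours. Of 22 tested, 15 were higher in LN-229 than in both lines (68.2%) and 0 were lower, with medians of 3.96 against T98G and 3.49 against U251. The family was not limited to LN-229. Summed over the list, it stood at 494 and 495 CPM in LN-229, 4.81 and 3.82 CPM in T98G and 252 and 212 CPM in U251. Against U251 alone, 16 of the 22 were called higher and 3 lower. A further 52 of the 74 in the file were under the filter, so the share speaks of genes that reached a mean of 1 CPM, which LN-229 alone brought about for 14 of the 15. All 14 tested members with a mean under 1 CPM in the other lines were called higher. The rank of this list therefore describes genes chosen in part by their level in LN-229. MAGEA10 was at 46.7 and 44 CPM in LN-229, 0.0145 and 0.0138 CPM in T98G and 0.0383 and 0.0395 CPM in U251, and MAGEA3 at 78.6 and 76.5 CPM in LN-229, 1.76 and 1.19 CPM in T98G and 5.75 and 5.42 CPM in U251. Both were far above the other lines, although MAGEA3 was detected in all libraries. PAGE2 was at 14.7 and 15.7 CPM in LN-229, 0.0145 and 0.0275 CPM in T98G and 0 and 0 CPM in U251, SSX2 at 11.8 and 12.5 CPM in LN-229, 0.00710 and 0 CPM in T98G and 0 and 0 CPM in U251, and CTAG2 at 7.37 and 7.43 CPM in LN-229, 0 and 0 CPM in T98G and 0 and 0.0198 CPM in U251. These 3 were at or under 3 reads in T98G and U251.

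The GAGE genes show why a single member is read with care. The start sites of 3 of them, 30 bases each from RefSeq with the first transcribed base in capitals, are shown because copies can share every letter.
GAGE12J, chrX:49322022-49322051, plus strand: gcatgttcactgggcGtcttctgcccggcc
GAGE2A, chrX:49589481-49589510, plus strand: gcatgttcactgggcGtcttctgcccggcc
GAGE13, chrX:49331567-49331596, plus strand: gcatgttcactgggcGccttctgcccggcc
The 11 GAGE promoters in the table held 5 different sequences, and 28 of the 55 pairs, compared position by position with no gaps, were identical at 99.7% to 100% of positions. The other 27 pairs, which all held GAGE10, GAGE12B or GAGE12G, were identical at 25.3% to 50.7%. An offset between start sites lowers this figure. The 30 bases around the start of GAGE12G hold most letters of the GAGE12J window, moved by a few bases, so a low figure need not mean unlike sequence. Reads of these copies were divided by the Expectation-Maximization step of the authors, so only the sum is firm. Summed over GAGE genes, LN-229 stood at 99.2 and 107.3 CPM, T98G at 0.0434 and 0.0825 CPM, and U251 at 0.0191 and 0.0395 CPM. XAGE1A and XAGE1B, SSX2 and SSX2B, and the MAGEA genes carry the same limit.

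Clustered protocadherins, neuronal adhesion proteins encoded side by side on chromosome 5, were higher in LN-229 for 19 of 40 tested genes (47.5%) and lower for 0. A further 13 were under the filter, and 16 of the 19 had a mean under 1 CPM over the other 4 libraries, so they were tested only because LN-229 was high and the share is a description of genes chosen in part by that level. The 19 were 10 of the alpha cluster and 9 of the beta cluster, and no gene of the gamma cluster was among them. PCDHA6 was at 8.38 and 8.82 CPM in LN-229, 0.0145 and 0.0687 CPM in T98G and 0.0192 and 0.0296 CPM in U251, PCDHB5 at 15.5 and 20.5 CPM in LN-229, 0.145 and 0.0687 CPM in T98G and 0.0397 and 0.0206 CPM in U251, and PCDHGC3 of the gamma cluster at 96 and 123 CPM in LN-229, 77.7 and 83.9 CPM in T98G and 61.4 and 76 CPM in U251. The first 2 were near 0 outside LN-229, while PCDHGC3 was well expressed in all lines. The alpha genes share their last exons, so reads there were also divided between them.

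Other adhesion molecules were also called often, with 15 of 38 tested genes higher (39.5%) and 7 lower (18.4%). Of the 15, 9 had a mean under 1 CPM in the other lines and were tested only because LN-229 was high. CDH12 and CDH18, neuronal cadherins, were detected in LN-229 alone, with CDH18 at 15.7 and 14.8 CPM in LN-229, 0.0145 and 0.0138 CPM in T98G and 0.0383 and 0 CPM in U251. MCAM, an adhesion molecule of melanoma and vessels, was at 118 and 229 CPM in LN-229, 24 and 23.3 CPM in T98G and 27.9 and 33.2 CPM in U251, and L1CAM, a neural adhesion molecule, at 62.3 and 61.9 CPM in LN-229, 32.4 and 19.6 CPM in T98G and 1.19 and 0.227 CPM in U251. All libraries of LN-229 were above the others for these genes, although the 2 LN-229 libraries differed in MCAM. On the lower side, CDH6, CDH11, PCDH18, NRCAM, ALCAM, THY1 and CD82 were called, and CDH11 was at 42.5 and 59.9 CPM in LN-229, 139.8 and 135 CPM in T98G and 157 and 190.1 CPM in U251. CDH2, N-cadherin, was at 149.7 and 138 CPM in LN-229, 51.5 and 42.4 CPM in T98G and 100.2 and 97.9 CPM in U251 and met neither rule, as its difference from U251 was 0.53 ± 0.18.

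The matrix genes moved in both directions, with 10 of 54 collagens, laminins and integrins higher (18.5%) and 7 lower (13%). Of the 10 higher genes, 5 had a mean under 1 CPM in the other lines and were tested only because LN-229 was high. The lower ones held the fibrillar chains COL1A2, COL5A1 and COL5A2. COL6A3 was called lower too, at 3.16 and 0.212 CPM in LN-229, 3636 and 3636 CPM in T98G and 4.13 and 3.36 CPM in U251, but its LN-229 libraries were far apart. Without the siHOTAIRM1 library of LN-229 its smaller difference fell from -1.08 to -0.24 and the call was lost. The higher ones held fibrillar chains as well, COL5A3 and COL11A2, beside chains of other classes. COL5A3 was at 12.4 and 21.9 CPM in LN-229, 0.0145 and 0.0412 CPM in T98G and 0 and 0.00988 CPM in U251, COL9A3, a cartilage-type chain, at 27.4 and 42.4 CPM in LN-229, 0.0869 and 0.151 CPM in T98G and 4.98 and 9.40 CPM in U251, and COL11A2 at 7.34 and 16.9 CPM in LN-229, 0.623 and 0.674 CPM in T98G and 0.0191 and 0.109 CPM in U251. In proteoglycans and matrix glycoproteins, 11 of 36 tested genes were higher (30.6%) and 3 lower (8.33%), and 5 of the 11 were tested only because LN-229 was high. HAPLN1, a link protein of hyaluronan, was at 38.6 and 60.5 CPM in LN-229, 0.0869 and 0.0275 CPM in T98G and 0.0574 and 0.00988 CPM in U251.

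Genes of the mesenchymal state of glioblastoma gave 5 of 29 higher (17.2%) and 8 lower (27.6%), and 2 of the 5 were tested only because LN-229 was high. The lower ones were CD44 (a hyaluronan receptor), TGFBI, LOX, SNAI2, CDH11, THY1, CAV1 and RUNX2. SNAI2, a repressor of epithelial genes, was at 0.0340 and 0.0289 CPM in LN-229, 13.2 and 8.80 CPM in T98G and 8.96 and 4.05 CPM in U251, and CAV1, the caveolae protein, at 59.3 and 50.8 CPM in LN-229, 262 and 175 CPM in T98G and 199.7 and 168 CPM in U251. CD44 was at 329 and 304 CPM in LN-229, 780.4 and 623 CPM in T98G and 819 and 572 CPM in U251. These were lower with no overlap, and SNAI2 was at or under 3 reads in both LN-229 libraries. FAP, ACTA2, TIMP1, RUNX1 and FOSL1 were higher, and TIMP1, an inhibitor of matrix proteases, was at 105 and 104 CPM in LN-229, 39.9 and 33.1 CPM in T98G and 21.7 and 16.9 CPM in U251.

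Of 30 tested receptor tyrosine kinases, 6 were higher (ERBB2, ERBB3, FLT1, FGFR4, IGF1R and INSR) and 4 were lower (PDGFRA, PDGFRB, MERTK and EPHB2). These are 20% and 13.3% of the list, beside 5.53% and 4.03% of all tested genes. Of the 6, 2 were tested only because LN-229 was high. ERBB2, the partner of ERBB3, was at 148 and 83 CPM in LN-229, 24.4 and 22.9 CPM in T98G and 0.364 and 0.484 CPM in U251. FLT1, a receptor of VEGF, was at 139.8 and 151 CPM in LN-229, 5.02 and 3.93 CPM in T98G and 0.0383 and 0.0692 CPM in U251. Both were above the other lines in each library. PDGFRA, the receptor amplified in some gliomas, was at 7.34 and 9.73 CPM in LN-229, 38.4 and 48 CPM in T98G and 125 and 134 CPM in U251, and PDGFRB at 3.19 and 2.75 CPM in LN-229, 185 and 188 CPM in T98G and 8.50 and 9.68 CPM in U251. EGFR was at 52.6 and 50.3 CPM in LN-229, 171 and 139.5 CPM in T98G and 44.4 and 50.1 CPM in U251, so LN-229 lay below T98G and its difference of 0.12 ± 0.18 from U251 did not pass the test (adjusted p = 0.58, limma).

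In a list of FGF, EGF, PDGF, VEGF and neurotrophin ligands and other secreted factors, 4 of 33 tested genes were higher (TGFA, EREG, HGF and GDNF) and 8 were lower. These are 12.1% and 24.2% of the list, and 3 of the 4 higher genes were tested only because LN-229 was high. The 8 included CYR61, a matrix protein bound by integrins, and EDN1, a ligand of G protein-coupled receptors, and not all of the list binds receptor tyrosine kinases. TGFA, a ligand of EGFR, was at 551 and 488 CPM in LN-229, 0.478 and 0.536 CPM in T98G and 122 and 170.1 CPM in U251. GDNF, a neurotrophic factor, was at 27.4 and 34.2 CPM in LN-229, 0.796 and 1.21 CPM in T98G and 0.115 and 0.109 CPM in U251, and HGF, the ligand of MET, at 7.13 and 5.76 CPM in LN-229, 0.0290 and 0.0412 CPM in T98G and 0 and 0.0198 CPM in U251. LN-229 was above every other library in all 3, while U251 held clear levels of TGFA. The lower genes also included BDNF at 4.57 and 4.67 CPM in LN-229, 24.8 and 17 CPM in T98G and 20.9 and 13.2 CPM in U251 and GAS6, the ligand of MERTK, at 0.249 and 0.240 CPM in LN-229, 7.20 and 5.83 CPM in T98G and 18 and 13.7 CPM in U251.

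Of 35 tested cytokines, chemokines and their receptors, 9 were higher in LN-229 than in both lines (25.7%), the receptors TNFRSF19 and NGFR among them, and 4 were lower (11.4%). Of the 9, 5 had a mean under 1 CPM in the other lines and were tested only because LN-229 was high. CXCL8, a chemokine of neutrophils, was at 363 and 352 CPM in LN-229, 43.9 and 12.1 CPM in T98G and 13.2 and 2.36 CPM in U251. CCL2, a chemokine of monocytes, was at 520.5 and 591 CPM in LN-229, 62.5 and 37.7 CPM in T98G and 17.4 and 11.5 CPM in U251. LIF, a cytokine of the interleukin 6 family, was at 518 and 446 CPM in LN-229, 17 and 11 CPM in T98G and 15.6 and 16.8 CPM in U251. No library of another line reached LN-229 in these genes, although CXCL8 and CCL2 differed between the libraries of T98G and U251. IL1A and IL1B were higher as well, and IL1B was at 24 and 14.3 CPM in LN-229, 0.637 and 0.206 CPM in T98G and 0.0191 and 0.0296 CPM in U251. IL6 was at 8.72 and 11.4 CPM in LN-229, 12.4 and 3.64 CPM in T98G and 1.70 and 1.69 CPM in U251 and overlapped between LN-229 and T98G. CSF1, TNFSF10 (TRAIL) and the receptors ACKR3 and IL7R were lower, and TNFSF10 was at 0.0340 and 0.0577 CPM in LN-229, 12.8 and 18.7 CPM in T98G and 21.7 and 19.1 CPM in U251.

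Developmental transcription factors differed gene by gene. In a list of T-box, forkhead, GATA and SOX factors, 8 of 23 tested were higher (34.8%) and 3 lower (13%). The list also held HAND2, which belongs to none of these families, while SOX8, SOX9 and SOX10 were counted with the glial markers. Of the 8, 4 had a mean under 1 CPM in the other lines and were tested only because LN-229 was high. SOX5 and SOX6, partners of SOX9 and SOX10, were higher, with SOX5 at 69.2 and 88.3 CPM in LN-229, 5.17 and 5.64 CPM in T98G and 19 and 25.4 CPM in U251 and SOX6 at 13.2 and 18.4 CPM in LN-229, 1.22 and 2.63 CPM in T98G and 0.555 and 1.40 CPM in U251. HAND2, a factor of sympathetic neurons and heart, was at 6.79 and 7.04 CPM in LN-229, 0.0145 and 0.0687 CPM in T98G and 0.0191 and 0.0296 CPM in U251. LN-229 stood alone in HAND2, with the other lines near 0. Among HOX genes, HOXA10, HOXB6, HOXB9 and HOXD13 were higher (17.4%) and HOXD10 was lower (4.35%) of 23 tested. Of the 4 higher HOX genes, 3 were likewise tested only because LN-229 was high. PAX6, a factor of the neural tube, was at 0.0113 and 0.0289 CPM in LN-229, 1.51 and 1.58 CPM in T98G and 3.66 and 4.46 CPM in U251 and was lower, as were IRX1, PITX1 and TSHZ3 among 31 other homeobox factors, while DLX1 and NKX2-2 were higher. The whole list of 31 gave 3 higher (9.68%) and 5 lower genes (16.1%). Of the 3 higher genes, 1 was tested only because LN-229 was high.

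Detoxifying enzymes were lower in LN-229 for 13 of 46 tested genes (28.3%) and higher for 5 (10.9%), of which 3 were tested only because LN-229 was high. NQO1, a quinone reductase under the factor NRF2, was at 127 and 122 CPM in LN-229, 949.9 and 762 CPM in T98G and 707 and 405 CPM in U251. AKR1C3, an aldo-keto reductase, was at 4.93 and 5.41 CPM in LN-229, 165 and 111 CPM in T98G and 42.5 and 28.8 CPM in U251, and EPHX1, an epoxide hydrolase, at 6.94 and 8.27 CPM in LN-229, 189.9 and 164 CPM in T98G and 46.6 and 54.1 CPM in U251. All LN-229 values were below the others, as the rule requires. ALDH1A3, an aldehyde dehydrogenase that makes retinoic acid, went the other way at 735 and 644 CPM in LN-229, 11 and 8.90 CPM in T98G and 15.8 and 15.7 CPM in U251, a difference of 5.98 ± 0.18 from T98G and 5.36 ± 0.18 from U251. Of 54 metabolic isozymes, 6 were higher (11.1%) and 8 lower (14.8%), beside 5.53% and 4.03% of all tested genes. Of the 6, 2 were tested only because LN-229 was high. ME1, the cytosolic malic enzyme, was at 21.2 and 23.7 CPM in LN-229, 0.130 and 0.110 CPM in T98G and 0.593 and 0.395 CPM in U251, and SLC2A1, the glucose transporter GLUT1, at 57.5 and 47.2 CPM in LN-229, 151 and 101 CPM in T98G and 166 and 229 CPM in U251.

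Among 23 tested tumour suppressors and oncogenes of glioblastoma, MDM2, CCND1 and MYCN were higher (13%, beside 5.53% of all tested genes) and 0 were lower. Of these 3, 1 (MYCN) was tested only because LN-229 was high. MDM2, the ligase that degrades p53, was at 190.0 and 223 CPM in LN-229, 41.6 and 35.4 CPM in T98G and 58 and 81.6 CPM in U251. The difference of MDM2 was 2.39 ± 0.19 from T98G and 1.57 ± 0.19 from U251, and its neighbours SLC35E3 and the carboxypeptidase M gene on chromosome 12 were higher too. CCND1, cyclin D1, was at 299 and 223 CPM in LN-229, 99.3 and 65.1 CPM in T98G and 45.5 and 60.6 CPM in U251, and MYCN at 6.74 and 12.6 CPM in LN-229, 0.594 and 0.316 CPM in T98G and 0.0191 and 0.00988 CPM in U251. DDB2 and PHLDA3, known p53 targets, were higher, with DDB2 at 56.8 and 57.8 CPM in LN-229, 8.18 and 7.64 CPM in T98G and 5.66 and 7.39 CPM in U251, while GDF15, another known target, was lower at 0.997 and 1.54 CPM in LN-229, 5.01 and 3.64 CPM in T98G and 4.99 and 5.93 CPM in U251. CDKN1A, the best known of them, was at 18.3 and 15.2 CPM in LN-229, 11 and 7.89 CPM in T98G and 6.51 and 6.03 CPM in U251 and met neither rule, since its difference from T98G was 0.78 ± 0.18. CDKN2A was at 0 in LN-229 and U251 and at 0.159 and 0.179 CPM in T98G, and it passed no filter for a test.

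A stricter reading is of genes that were detected in 1 setting only. In LN-229 alone, 180 genes reached at least 1 CPM in both libraries with at most 3 reads in each of the other 4, which is 1.14% of the 15806 genes at 1 CPM in any library. By the mirrored rule, 58 genes (0.367%) were undetected in LN-229 alone. Of the 180, 125 were protein-coding, 13 were lncRNAs and 27 lay on the X chromosome. GPR132, a receptor of the G protein-coupled class, was at 43.7 and 46.6 CPM in LN-229, 0.0434 and 0.0275 CPM in T98G and 0.0383 and 0.0296 CPM in U251. PTPN3, a tyrosine phosphatase, was at 32.9 and 27.6 CPM in LN-229, 0.0290 and 0.0138 CPM in T98G and 0 and 0 CPM in U251, and FREM1, a basement membrane protein, at 17.9 and 21.7 CPM in LN-229, 0.0145 and 0 CPM in T98G and 0 and 0.0198 CPM in U251. Others named by their level were RNF128, HLA-DQB1, TUBA3C, XAGE1A, COL5A3 and CDH18. TUBA3C has near-identical copies, so its own level is uncertain.

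Of the 58 undetected genes, 44 were protein-coding. LAYN, a hyaluronan receptor, was at 0.0113 and 0.0192 CPM in LN-229, 17.6 and 11.9 CPM in T98G and 112 and 79 CPM in U251. MEST, an imprinted gene expressed from the paternal copy, was at 0.0113 and 0.00962 CPM in LN-229, 17.5 and 14.1 CPM in T98G and 50.5 and 25.8 CPM in U251, and MEG3, an imprinted lncRNA of the maternal copy, at 0 and 0 CPM in LN-229, 7.83 and 4.54 CPM in T98G and 1.82 and 2.55 CPM in U251. LYN, a kinase of the SRC family, was at 0.0113 and 0 CPM in LN-229, 17.3 and 13.1 CPM in T98G and 8.63 and 8.60 CPM in U251. CTSZ, a lysosomal protease, was at 0 and 0 CPM in LN-229, 19.4 and 15.9 CPM in T98G and 12.3 and 12.2 CPM in U251, and CLEC2B at 0 and 0 CPM in LN-229, 12.1 and 9.05 CPM in T98G and 24 and 12.4 CPM in U251. Neither library of LN-229 had more than 3 reads in these genes, while all others had 1 CPM or more. PEG3, imprinted as well, was in the opposite state at 22.3 and 22.5 CPM in LN-229, 0.0290 and 0.0138 CPM in T98G and 0.0957 and 0 CPM in U251. Of 19 tested oncofetal and imprinted genes, LIN28B, HMGA2, PEG3 and KCNQ1OT1 were higher (21.1%) and IGF2BP3, MEG3 and MEST were lower (15.8%). Of the 4 higher genes, 2 were tested only because LN-229 was high.

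Some of the genes lay next to each other. In the order of 13017 tested genes placed by GENCODE v44 on hg38, 15 runs of at least 3 neighbours were all higher (75 genes) and 15 runs were all lower (49 genes). The longest was of 17 protocadherins and lay on chromosome 5 from 140794852 to 141186226. The next was of 11 GAGE genes on chromosome X from 49322037 to 49608538, where copies share reads. A run of 5 class II genes from HLA-DRA to HLA-DQB1 lay on chromosome 6 from 32439878 to 32668383. BCL2, KDSR, VPS4B, SERPINB5, SERPINB8 and CDH19 formed a run of 6 on chromosome 18 from 63123346 to 66604138, and SERPINB5 (maspin) was at 41.6 and 33.6 CPM in LN-229, 0.0290 and 0.0550 CPM in T98G and 0.0574 and 0.0395 CPM in U251. On the lower side, CUL5, ACAT1, NPAT and ATM formed a run of 4 on chromosome 11 from 108008898 to 108369102, with ATM, the kinase of the DNA damage response, at 36.8 and 33.6 CPM in LN-229, 125 and 112 CPM in T98G and 119 and 86.3 CPM in U251. LUC7L, ITFG3, AXIN1, MRPL28 and TMEM8A formed a run of 5 on chromosome 16, and IFIT1, IFIT2 and IFIT3 a run of 3 on chromosome 10.

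By chromosome, the share of higher genes was largest on chromosome 18, with 32 of 199 tested genes (16.1%) beside 5.53% of all. A further 13 genes of chromosome 18 were lower (6.53%), beside 4.03% of all. Its genes had a median difference of 0.35 against T98G and 0.49 against U251. On the X chromosome 50 of 501 were higher (9.98%), GAGE copies included, and 30 were lower (5.99%). The share of lower genes was largest on chromosome 11 at 7.71%, where 6.17% were higher. DNA copy number was not measured in these libraries, and its part in these shares was not tested.

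The gene that the study followed, TGM2 (transglutaminase 2), was among the higher genes of LN-229, at 43.6 and 31.3 CPM in LN-229, 8.31 and 9.38 CPM in T98G and 0.0191 and 0 CPM in U251. It was below LN-229 in T98G and near 0 in U251, a difference of 1.95 ± 0.18 from T98G and 5.23 ± 0.18 from U251. PGK1, a glycolytic enzyme, was at 207 and 222 CPM in LN-229, 408 and 312 CPM in T98G and 679 and 1043 CPM in U251 and met neither rule, since its difference from T98G was -0.73 ± 0.24.

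**Figure D5:**
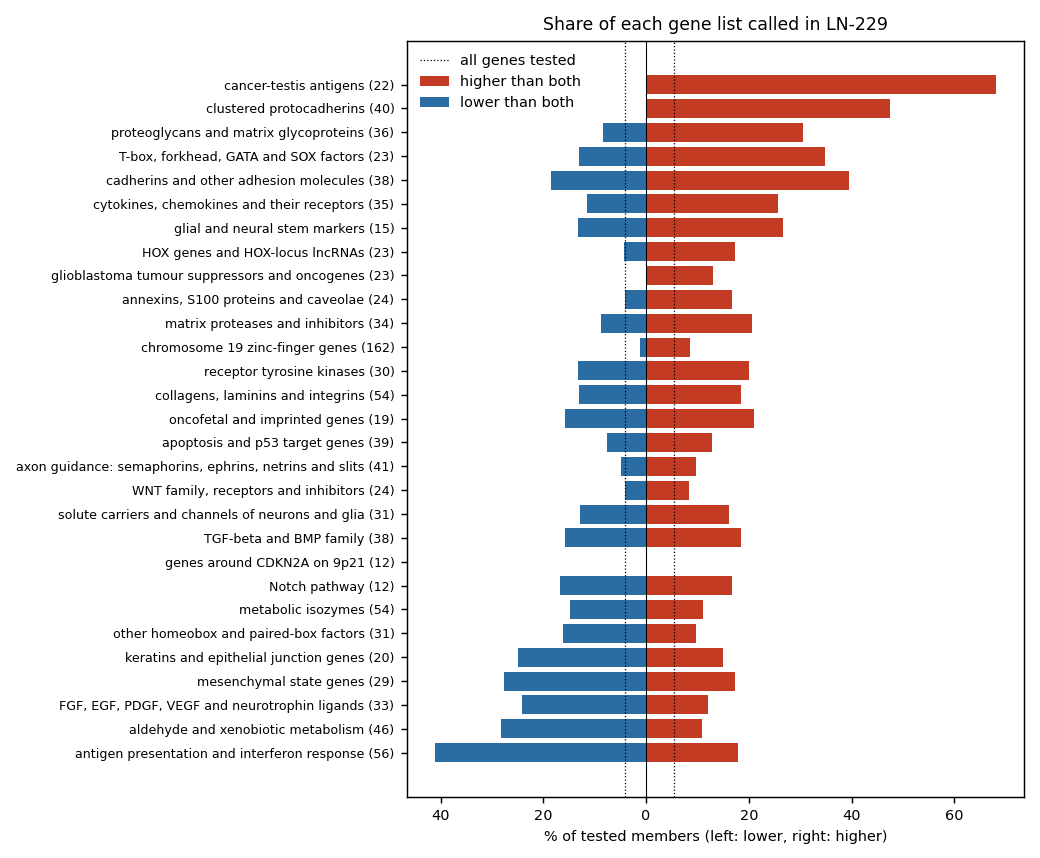
Share of the tested members of each gene list (number tested in brackets, lists with at least 10) that was higher (red, to the right) or lower (blue, to the left) in LN-229 than in both other lines, in percent. Dotted lines mark all tested genes at 5.53% and 4.03%, and cancer-testis antigens and clustered protocadherins had no lower member while antigen presentation and the interferon response had the largest lower share at 41.1%. Many red shares include members that were tested only because LN-229 was high.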

How the data were processed

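RNA of LN-229, T98G and U251 cells was sequenced after transfection with siControl or siHOTAIRM1, with 1 library for each line and siPOOL. The authors trimmed the reads, aligned them to hg38 with STAR 2.4.1d and then with Bowtie, quantified them on Ensembl genes with an Expectation-Maximization algorithm in Partek, and deposited CPM values of 59074 genes with 0.0001 added to each. The constant was subtracted. The deposited CPM sum to 42.9 to 67.2% of the CPM scale in each library. The CPM worth of 1 read was read from the steps between low values, which gave a depth of 52.3 to 104 M reads. Since 82.3 to 83.4% of the low values were whole reads within 0.05 of a read, tests for counts were not used.

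Genes whose mean over the 6 libraries reached 1 CPM (14293) were fitted with limma 3.58.1 (R 4.3.3) on log2(CPM + 1) with the line and the siPOOL as terms and a mean-variance trend, and p-values were adjusted over all of them for each contrast (Benjamini-Hochberg). The fit has 2 residual degrees of freedom and a prior of 32.4, so the spread is largely shared across genes. The named genes are the 15 largest differences in each direction (by the smaller of both, protein-coding or lncRNA), up to 15 genes detected or undetected in LN-229 alone by level, called members and counter-examples of 30 gene lists and 8 marker lists, neighbouring genes called together, HOTAIRM1, TGM2 and PGK1. The lists and rules were chosen with earlier results of these data known. A few genes are counted in totals and are not reported here. Positions come from GENCODE v44, to which 34203 genes were matched by symbol (1712 by an older one), and sequences from RefSeq on GRCh38.p14. In data simulated for LN-229 above both lines, 200 of 200 genes shifted by 2 on the log2 scale were recovered with 0 others called. Only these 200 of 14293 genes were shifted, whereas 54.9% (against T98G) and 60.6% (against U251) of tested genes were called in the measured data. The 0 therefore does not give the rate of false calls in the measured data. With a shift of 1, 72 of 200 passed, since the estimate must reach 1. Alternatives were no siPOOL term, a pseudocount of 0.1, no filter, other scalings, no trend, other minimum differences or read limits, and leaving out each library.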

Additional observations from a re-analysis of the deposited data

How the results depend on the processing

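The number of genes higher in LN-229 than in both lines lay between 757 and 831 with each library left out, and the number lower between 517 and 675. Calls against T98G ranged from 5107 (without the siHOTAIRM1 library of T98G) to 8046, and calls against U251 from 5977 to 8080. A line left with 1 library is assumed to vary like the others. With a minimum difference of 2, 399 genes were higher and 167 lower, and with no minimum 1895 and 1860. Genes detected in LN-229 alone numbered 101 when 1 read was allowed in the other lines, 284 with 10 reads and 54 with a level of 5 CPM, and 182 to 202 with each library left out. Genes undetected in LN-229 alone numbered 31, 95 and 17 under the same limits, and 58 to 70. These counts move by construction, as the limits decide how many genes can pass.

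Scaled to the sum of listed genes, 978 genes were higher (788 of the 790 among them) and 564 lower (494 of the 576). With median-of-ratios factors the counts were 836 and 546, of which 768 and 516 were shared. Without the siPOOL term they were 790 and 574. Over these alternatives and the left-out libraries, 9 to 10 genes of antigen presentation and the interferon response were higher and 19 to 25 lower, 15 cancer-testis antigens were higher and 0 to 1 lower, and 18 to 22 clustered protocadherins were higher and 0 lower. Of the genes named in the text, AXIN1, LUC7L, TMEM8A, RUNX1, COL6A3, B2M, CD44, NPAT, PITX1, GDF15, SLC2A1, L1CAM, FOSL1, IGF1R, EPHB2, NKX2-2, HLA-DMB, EDN1, ID1, ID2 and ID3 lost their call under at least 1 alternative. Each did so at least once with the smaller difference under 1, as in CD44 (-0.75 scaled to listed genes) and B2M (-0.95), and COL6A3 (-1.08 without the siPOOL term), FOSL1 (1.04), ID2 (-1.33) and ID3 (-1.19, these 3 with no expression filter) also with it past 1. PGK1 was called lower only without the siHOTAIRM1 library of T98G (-1.11). No gene named by the rules reversed under any alternative. The libraries of the 3 lines are matched by siPOOL, which was a term of the fit throughout, and the values without it are those above. With 1 library per line and siPOOL, spread between cultures was not measured.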

Other observations

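Where the 2 libraries of LN-229 differed most among its own genes, the level in one of them was several times the other. SCARA5, a scavenger receptor, was at 10.1 CPM with siControl and 1.5 CPM with siHOTAIRM1, and at most 0.0290 CPM elsewhere. NGFR, a neurotrophin receptor of Schwann cell precursors, was at 4.79 and 20.5 CPM, and TF, transferrin, at 1.85 and 6.79 CPM. HHIP, an inhibitor of hedgehog ligands, was at 16.2 and 6.17 CPM. With 1 library per siPOOL these differences have no replicate check.

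The remaining gene lists are given by their shares, beside 5.53% higher and 4.03% lower of all tested genes. Of 162 tested zinc-finger genes of chromosome 19, 14 were higher (8.64%) and 2 were lower (1.23%). WNT genes gave 2 higher (8.33%) and 1 lower (4.17%) of 24, and axon guidance genes 4 (9.76%) and 2 (4.88%) of 41. Of 12 tested genes around CDKN2A and 4 tested metallothioneins, 0 met either rule. Notch genes gave 2 higher and 2 lower of 12 (16.7% each). TGF-beta and BMP genes gave 7 higher (18.4%) and 6 lower (15.8%) of 38, with BMP2 on the higher side and ID1, ID2 and ID3, targets of BMP signalling, on the lower side. Without the siControl library of LN-229 these 3 lost their call, with smaller differences of -0.75, -0.87 and -0.70. Keratins and epithelial junction genes gave 3 higher (15%) and 5 lower (25%) of 20, and matrix proteases and inhibitors 7 (20.6%) and 3 (8.82%) of 34. Annexins, S100 proteins and caveolae gave 4 higher (16.7%) and 1 lower (4.17%) of 24, apoptosis and p53 target genes 5 (12.8%) and 3 (7.69%) of 39, and solute carriers and channels of neurons and glia 5 (16.1%) and 4 (12.9%) of 31. Members that LN-229 alone brought past the filter are part of several of these counts. Of the marker lists, 1 of 5 tested neuron markers was higher (GAD1), and the 1 tested endothelial marker met neither rule.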
